A study of Homo sapiens with 9 samples.

Results

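The 36 genes described here encode enzymes that build sterols, fatty acids and acyl-CoA. They were taken from a list of named enzymes and found by Ensembl identifier among the 60664 genes counted. The sterol branch holds 19 of them and the fatty acid branch 17. RNA of the human breast cancer line MDA-MB-231 was sequenced in 9 samples that form 3 groups of 3. Scramble control (SC) cells, which carry a hairpin with no intended target, were kept in medium of 0.77 cP or of 8 cP. Cells with a short hairpin RNA against *TRPV4*, a calcium-permeable ion channel (shTRPV4), were kept at 8 cP. All samples were collected on day 6, and viscosity was raised with methylcellulose. The study's methods describe diluting a methylcellulose stock with serum-containing medium. They state no serum for the stock, so whether serum was equal at both viscosities is not known. The hairpins were delivered by lentivirus to make stable lines. No shTRPV4 sample at 0.77 cP is analysed here, so whether the hairpin changed the response to viscosity was not tested. The comparisons below ask how the enzymes of each branch differed between SC cells at both viscosities, and between shTRPV4 and SC cells at 8 cP.

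Cells make cholesterol from acetyl-CoA through mevalonate, isoprenoid diphosphates, squalene and lanosterol. Fatty acids also start from acetyl-CoA, which is carboxylated, polymerised to palmitate, and then elongated, desaturated and joined to coenzyme A. Genes of both branches are textbook targets of the SREBP transcription factors. SREBP2, encoded by *SREBF2*, is known mainly for sterol enzymes, and SREBP1, encoded by *SREBF1*, for fatty acid enzymes. SREBPs are released from the endoplasmic reticulum when sterols are low, with the help of SCAP and under restraint by INSIG proteins.

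The libraries held 64571681 to 103518036 counts, and all 36 enzymes passed the filter on low counts, with 506 to 39435 counts per enzyme and sample. Levels are given as CPM, counts relative to the library size as scaled by edgeR's trimmed mean of M-values (TMM). *TRPV4* had 28 to 54 counts in SC cells at 0.77 cP, 24 to 64 in SC cells at 8 cP and 1 to 13 in shTRPV4 cells, so its level was low throughout. It was lower in shTRPV4 than in SC cells at 8 cP by a log2 fold change of -2.51 ± 0.49 (SE, adjusted p = 0.00219, edgeR). Mitochondrially encoded genes took 2.04% to 2.58% of counts in SC cells at 0.77 cP, 2.23% to 2.44% in SC cells at 8 cP and 3.28% to 3.4% in shTRPV4 cells. Of the 5 epithelial markers, *CDH1* was near 0, while *KRT8*, *KRT18*, *KRT19* and *EPCAM* were present and summed to 2390 to 2650 CPM in SC cells at 0.77 cP, 1920 to 2090 CPM in SC cells at 8 cP and 1800 to 2100 CPM in shTRPV4 cells. The 5 mesenchymal markers (*VIM*, *CD44*, *FN1*, *ZEB1* and *AXL*) summed to 4310 to 4430, 4130 to 4260 and 3590 to 3670 CPM in the same order. In SC cells at 8 cP against 0.77 cP, *AXL* was higher (log2 fold change 0.22) and *FN1* (-0.46) and *VIM* (-0.17) lower. *CD44* and *ZEB1* did not pass the test. Of the epithelial markers, *KRT8* (-0.31), *KRT18* (-0.21) and *KRT19* (-0.37) were lower and *EPCAM* did not pass. Between shTRPV4 and SC cells at 8 cP, *AXL* (-0.31), *VIM* (-0.28) and *ZEB1* (-0.16) were lower and *KRT18* (0.18) higher. The other epithelial and mesenchymal markers tested did not pass there. *ESR1* and *PGR* were near 0, and *ERBB2* was at 89.6 to 96.8 CPM in every sample. The 5 blood and endothelial markers summed to 9.35 to 12.7, 6.37 to 7.73 and 5.06 to 6.37 CPM in that order of groups, with *CD3E* at or near 0. Most of this came from *CD14* (mean 5.86 CPM in SC cells at 0.77 cP) and *PECAM1* (5.04 CPM). Both were lower in SC cells at 8 cP (-0.46 and -0.86 on the log2 scale). The part of these differences in the results below was not tested. In bulk RNA, a lower level in every cell cannot be told apart from a lower share of cells with a high level.

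The enzymes spanned a wide range of levels. Per kilobase of exon, which allows different genes to be compared, *SCD* (62.4 ± 17.6 CPM per kb, SD, n = 3), *ELOVL5* (60.1 ± 1.27), *ACLY* (53.0 ± 1.25) and *ELOVL1* (48.5 ± 2.15) stood highest in SC cells at 0.77 cP. The spread of *SCD* covered the values of its 3 neighbours in that order. *ACACB* stood lowest in all 3 groups, at 0.669 CPM per kb in SC cells at 0.77 cP. The highest sterol enzyme in each group was *PMVK*, at 37.7 CPM per kb in SC cells at 0.77 cP, 37.9 at 8 cP and 38.2 in shTRPV4 cells. *SCD* moved from rank 1 of 36 to rank 7 in SC cells at 8 cP and rank 10 in shTRPV4 cells, whereas *ELOVL5*, *ACLY* and *ELOVL1* held ranks 1 to 3 in both groups at 8 cP. Exon lengths join the exons of all annotated transcripts of a gene, so genes with long unused exons are given too low a level.

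**Figure D1:**
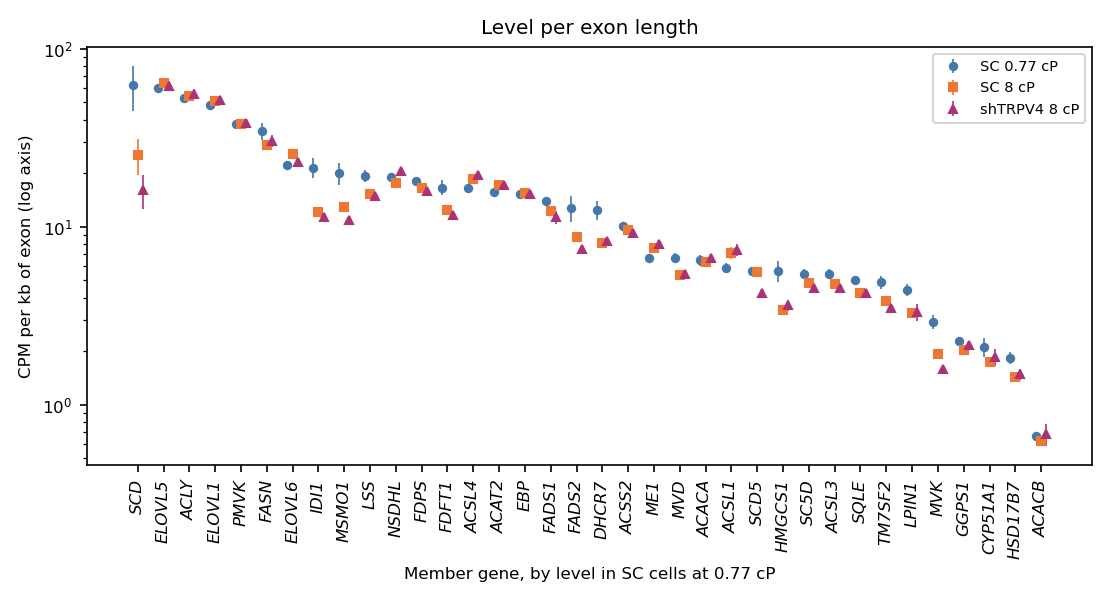
Mean level of each enzyme gene in CPM per kilobase of exon (log axis), with the SD over 3 samples, for SC at 0.77 cP (circles), SC at 8 cP (squares) and shTRPV4 at 8 cP (triangles). *SCD* drops from 62.4 to 25.4 and 16.1 CPM per kb, while *ELOVL5*, *ACLY* and *PMVK* stay close together across the groups.

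At 8 cP, most enzymes of the sterol branch were lower in SC cells than at 0.77 cP. Of 19 sterol enzymes, 12 fell and 0 rose (adjusted p below 0.05, edgeR's quasi-likelihood test adjusted over 18264 genes). At an unadjusted p below 0.05, 16 were lower and 1 higher, and DESeq2 called 12 lower and 0 higher. Among all genes tested, 19.3% were called by edgeR in this comparison, 9.57% higher and 9.69% lower. Of the 18264 genes, 6026 had an unadjusted p below 0.05 and 3927 were called by DESeq2. The median log2 fold change of the sterol enzymes was -0.32, against -0.0065 over all genes. It ranged from -0.83 for *IDI1* to 0.13 for *ACAT2*. Summed over the branch, sterol enzymes stood at 947, 892 and 815 CPM in the SC samples at 0.77 cP, in the order of their replicate numbers, and at 687, 698 and 694 CPM at 8 cP. The samples at 0.77 cP were spread more widely than those at 8 cP, and the groups did not overlap.

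In the steps from acetyl-CoA to isoprenoid diphosphates, 4 of 8 enzymes fell, against 9.69% of all genes. The largest fall was in *IDI1*, which interconverts isopentenyl and dimethylallyl diphosphate. Its level was 104, 91.8 and 80.9 CPM in SC cells at 0.77 cP and 50.1, 56.1 and 49.7 CPM at 8 cP, a log2 fold change of -0.83 ± 0.076 (SE, adjusted p = 3.26e-06, edgeR). The lowest sample at 0.77 cP lay well above the highest at 8 cP. *HMGCS1*, which makes the HMG-CoA that is reduced to mevalonate, had 42.5, 37.8 and 32.2 CPM at 0.77 cP and 22.4, 23.4 and 21.9 CPM at 8 cP (-0.73 ± 0.083, adjusted p = 4.46e-05, edgeR). *MVK*, the kinase of mevalonate, had 28.9, 26.1 and 24.2 CPM and then 16.1, 17.8 and 18.4 CPM (-0.60 ± 0.073, adjusted p = 9.62e-05, edgeR). *MVD*, which decarboxylates the product of *PMVK*, fell by 0.32 on the log2 scale, from 31.5 ± 2.21 to 25.3 ± 0.951 CPM (SD, n = 3). The other 4 did not pass the test. *ACAT2*, the thiolase that opens the pathway, was at 41.4 ± 1.88 and 45.3 ± 1.76 CPM (0.13 ± 0.049, SE). *PMVK*, which adds the next phosphate after *MVK*, was at 37.8 ± 0.549 and 38.0 ± 0.64 CPM. *FDPS*, the farnesyl diphosphate synthase, was at 67.4 ± 3.63 and 61.7 ± 1.99 CPM. *GGPS1*, which makes the geranylgeranyl diphosphate used in protein prenylation and so lies beside the route to sterols, was at 8.66 ± 0.452 and 7.73 ± 0.231 CPM. Along the route, *PMVK* thus lies between *MVK* and *MVD*, which both fell.

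From squalene to cholesterol, 8 of 11 enzymes fell, against 9.69% of all genes. *DHCR7*, the reductase of 7-dehydrocholesterol, had 95.1, 85.8 and 74.8 CPM in SC cells at 0.77 cP and 53.7, 54.4 and 59.9 CPM at 8 cP (-0.61 ± 0.072, SE, adjusted p = 6.69e-05, edgeR). *MSMO1*, the sterol methyl oxidase, fell by 0.63 on the log2 scale, from 56.9 ± 8.09 to 36.7 ± 1.7 CPM (SD, n = 3). *FDFT1*, the squalene synthase, fell by 0.41 on the log2 scale and *LSS*, which closes the rings to lanosterol, by 0.34. With 140 ± 11.4 CPM at 0.77 cP, *LSS* gave the largest share of the branch's counts (15.8%) and kept 16% at 8 cP, while the share of *IDI1* went from 10.4% to 7.49%. *HSD17B7*, a reductase of the demethylation steps, fell by 0.36 and *TM7SF2*, a sterol reductase, by 0.35. *SQLE*, the squalene epoxidase, fell by 0.25 from 21.7 ± 0.93 to 18.2 ± 0.742 CPM, and *SC5D*, a sterol desaturase, by 0.18. *CYP51A1*, the lanosterol demethylase, had -0.27 ± 0.10 (SE, adjusted p = 0.0712, edgeR) and *NSDHL*, a dehydrogenase of the demethylation steps, -0.11 ± 0.048, and neither passed. *EBP*, a sterol isomerase, was at 26.8 ± 0.613 and 27.2 ± 0.8 CPM (SD, n = 3). *CYP51A1*, *GGPS1* and *EBP* share 68.2%, 37.3% and 36.4% of their exon bases with another annotated gene on the same strand, so their counts are uncertain. *HMGCS1*, *ACAT2*, *FDPS* and *IDI1* share 37.7%, 20.9%, 18.6% and 15.0% of theirs with a gene on the other strand, whose reads cannot be told apart here because the strand option of the counting is not given in the sources used. Leaving out single samples ended the calls of *SC5D* (without SC 0.77 cP replicate 1 or 2, or SC 8 cP replicate 1 or 3, adjusted p up to 0.157), *HSD17B7* (without SC 0.77 cP replicate 2 or SC 8 cP replicate 3, up to 0.0623) and *SQLE* (without SC 0.77 cP replicate 1, 0.0509).

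**Figure D2:**
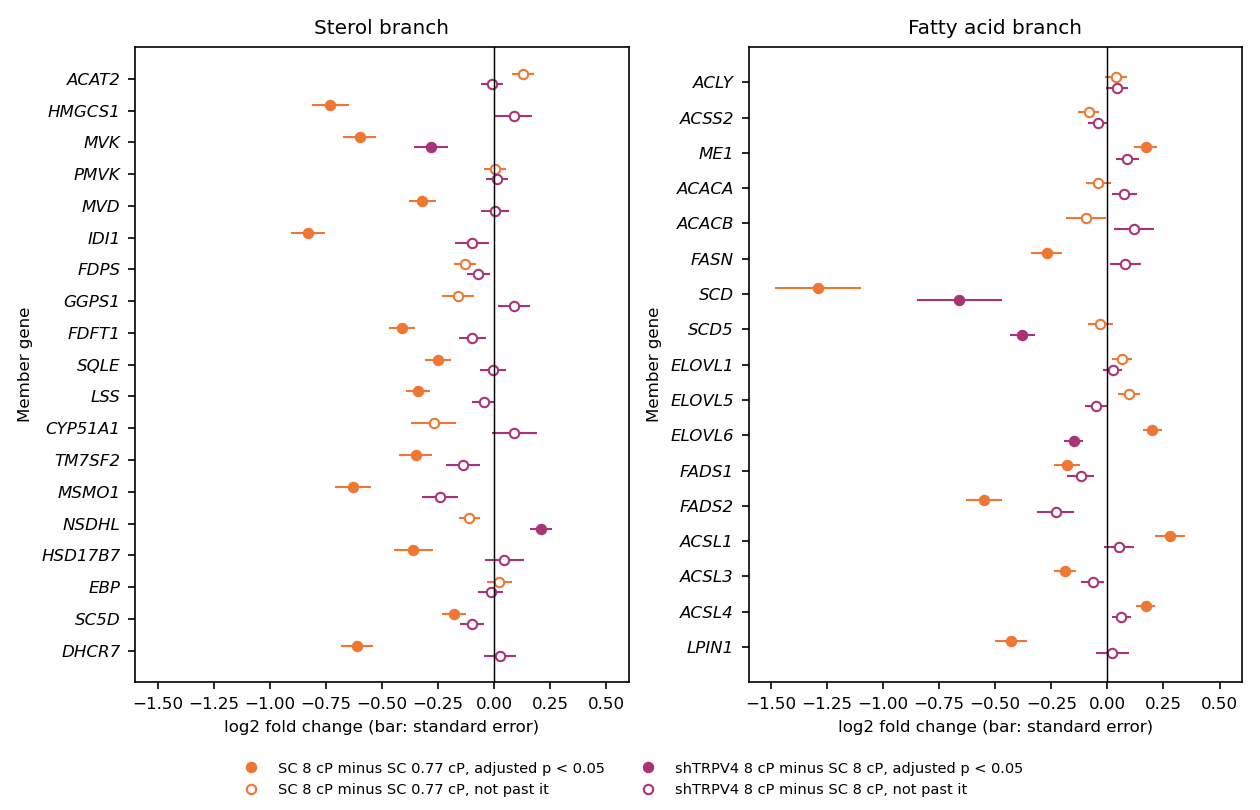
log2 fold change of each enzyme with its standard error for SC cells at 8 cP against 0.77 cP (orange) and shTRPV4 against SC cells at 8 cP (purple). Filled points have an adjusted p below 0.05 in edgeR. In the sterol branch, 12 orange points are filled and all lie left of 0, while 2 purple points are filled (*MVK* and *NSDHL*).

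The promoters of some enzymes that fell are shown to place their sequence beside the change. They come from RefSeq's windows on GRCh38.p14, cover the 250 bases before the start of transcription, and are written 5′ to 3′ on the gene's strand. Capitals mark CCAAT or its reverse complement ATTGG, the letters recognised by the factor NF-Y, which is known to act with SREBPs. Shown are the 3 sterol enzymes and the fatty acid enzyme with the largest fall whose window held these letters and lay nearly clear of annotated exons. The windows shown had at most 2 bases inside them. *HMGCS1*, *DHCR7* and *MVK* fell more than *HSD17B7* and held these letters, but their windows reached further into annotated exons.
*IDI1*, chr10:1049120-1049369, minus strand: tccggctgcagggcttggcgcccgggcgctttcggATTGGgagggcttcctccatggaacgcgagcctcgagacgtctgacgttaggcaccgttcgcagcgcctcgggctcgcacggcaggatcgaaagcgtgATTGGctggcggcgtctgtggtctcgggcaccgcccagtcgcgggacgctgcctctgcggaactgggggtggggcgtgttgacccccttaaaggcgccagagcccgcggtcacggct
*MSMO1*, chr4:165327419-165327668, plus strand: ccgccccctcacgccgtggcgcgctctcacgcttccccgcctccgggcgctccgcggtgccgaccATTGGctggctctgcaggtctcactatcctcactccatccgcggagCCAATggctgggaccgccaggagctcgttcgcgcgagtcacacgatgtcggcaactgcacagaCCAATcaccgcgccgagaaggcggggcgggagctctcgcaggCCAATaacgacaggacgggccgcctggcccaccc
*HSD17B7*, chr1:162790452-162790701, plus strand: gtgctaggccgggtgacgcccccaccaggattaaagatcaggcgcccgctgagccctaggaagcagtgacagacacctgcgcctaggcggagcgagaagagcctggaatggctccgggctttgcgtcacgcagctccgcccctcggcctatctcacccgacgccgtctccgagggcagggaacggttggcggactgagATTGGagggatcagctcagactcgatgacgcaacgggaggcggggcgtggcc
*SCD*, chr10:100346983-100347232, plus strand: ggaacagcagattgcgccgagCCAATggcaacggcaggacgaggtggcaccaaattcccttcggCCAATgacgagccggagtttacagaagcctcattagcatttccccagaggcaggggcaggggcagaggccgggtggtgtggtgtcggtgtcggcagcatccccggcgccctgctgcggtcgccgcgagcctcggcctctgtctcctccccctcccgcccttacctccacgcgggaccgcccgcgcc

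The window of *MSMO1* holds these letters 4 times, those of *IDI1* and *SCD* 2 times each and that of *HSD17B7* 1 time. RefSeq's table gave windows for 16 sterol and 16 fatty acid enzymes, and *ACAT2*, *FDFT1*, *SQLE* and *FASN* were not among them. CCAAT on either strand was found before 14 of 16 sterol enzymes (87.5%) and 10 of 16 fatty acid enzymes (62.5%), against 37.0% of 27305 genes. The Sp1 letters GGGCGG were found before 15 of 16 enzymes in each branch (93.8%), against 46.2% of genes. The sterol regulatory element was searched as TCACNCCAC on either strand. These letters were found before 0 of 16 sterol enzymes and 1 of 16 fatty acid enzymes (*ACSL1*), against 1.09% of genes. Only this form was searched, so elements with other letters or outside the windows would be missed. The E-box letters CACGTG were found before 1 of 16 enzymes in each branch, *SC5D* and *ELOVL5*, against 7.73% of genes. The 27305 genes are all those with a window and were not limited to genes that passed the filter on low counts, as the enzymes did. The shares are therefore not a comparison with expressed genes. Genes with several windows had more than 1 chance to hold a motif, motifs that overlap were each counted, and a match is a description of the window only.

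In the fatty acid branch the enzymes moved in both directions. Of 17 enzymes, 4 rose (*ME1*, *ELOVL6*, *ACSL1* and *ACSL4*) and 6 fell (*FASN*, *SCD*, *FADS1*, *FADS2*, *ACSL3* and *LPIN1*) in SC cells at 8 cP, against the 9.57% higher and 9.69% lower among all genes. The median log2 fold change was -0.041, with a range from -1.29 for *SCD* to 0.28 for *ACSL1*. The summed level was 2240 ± 143 CPM at 0.77 cP and 1990 ± 12.5 CPM at 8 cP (SD, n = 3). Without *SCD*, a split chosen after the values were seen, the sums were 1920 ± 56.2 and 1860 ± 35.7 CPM, with ranges of 1880 to 1980 and 1830 to 1900 CPM that overlapped. With *SCD* kept, the fatty acid sums did not overlap, at 2400, 2210 and 2120 CPM at 0.77 cP and 2000, 1980 and 1990 CPM at 8 cP. The sterol sum was 885 ± 66.0 and 693 ± 5.79 CPM. No enzyme was taken out of it, so it is not comparable with the sum without *SCD*.

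**Figure D3:**
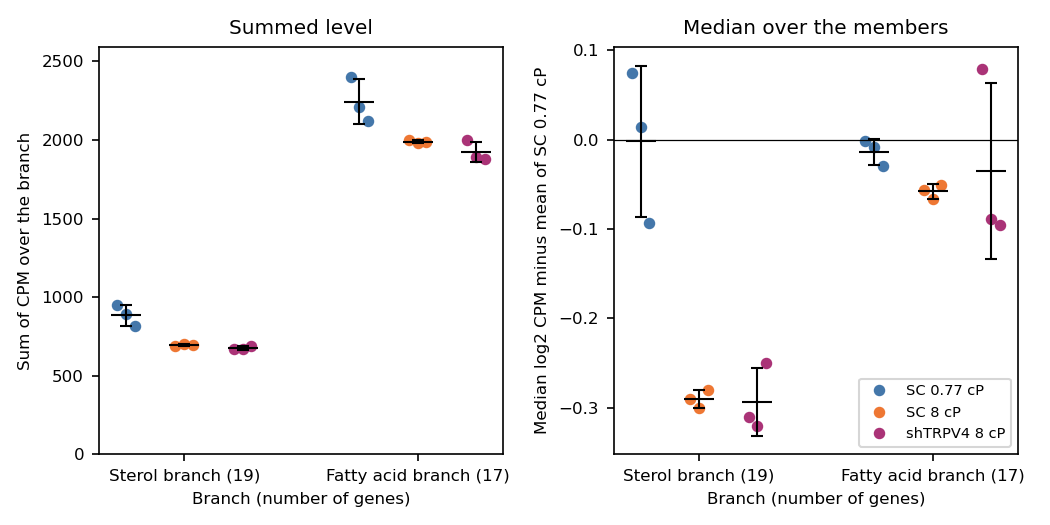
Left, CPM summed over the 19 sterol and 17 fatty acid enzymes in each sample. Right, the median over the enzymes of log2 CPM minus its mean in SC cells at 0.77 cP. Points are samples, and black marks give the mean and SD of 3 samples. The sterol sum falls from 885 to 693 and 675 CPM, and its median from near 0 to -0.29 and -0.30, whereas the fatty acid median stays between -0.095 and 0.079 in every sample.

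Of the 6 enzymes from citrate and acetate to palmitate, 1 was higher and 1 lower (33.3%, against 19.3% of all genes). *FASN*, the fatty acid synthase, fell from 363, 305 and 301 CPM to 275, 262 and 265 CPM (-0.27 ± 0.069, SE, adjusted p = 0.0127, edgeR), and the call was lost without SC 0.77 cP replicate 1 or SC 8 cP replicate 3 (adjusted p up to 0.0818). *ME1*, the malic enzyme that supplies NADPH, rose from 22.4 ± 0.531 to 25.2 ± 0.696 CPM (SD, n = 3), by 0.17 on the log2 scale. Its call was lost without SC 0.77 cP replicate 1 or 3 or SC 8 cP replicate 1 or 3 (adjusted p up to 0.0932) and with no filter on low counts (0.0764). *ACLY*, which splits citrate to acetyl-CoA, was at 276 ± 6.52 and 283 ± 5.42 CPM. *ACSS2*, which makes acetyl-CoA from acetate, was at 53.1 ± 2.32 and 50.1 ± 0.208 CPM. The acetyl-CoA carboxylases *ACACA* (84.4 ± 6.06 and 82.1 ± 2.37 CPM) and *ACACB* (9.70 ± 0.296 and 9.10 ± 0.386 CPM) did not pass either. Per kilobase, *ACACA* stood at 6.48 and *ACACB* at 0.669 CPM in SC cells at 0.77 cP.

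Among the desaturases and elongases, 3 of 7 fell and 1 rose, against 9.69% lower and 9.57% higher among all genes. *SCD*, the main stearoyl-CoA desaturase, which makes monounsaturated acyl chains, had 418, 329 and 234 CPM in SC cells at 0.77 cP and 153, 149 and 98.5 CPM at 8 cP. This was the largest fall of the 36 enzymes, a log2 fold change of -1.29 ± 0.19 (SE, adjusted p = 0.000576, edgeR) and its level fell by 59.2%. The samples within each group also differed widely, but the lowest at 0.77 cP lay above the highest at 8 cP. Its share of the branch's counts was 14.4% ± 3.21 at 0.77 cP and 6.70% ± 1.53 at 8 cP (SD, n = 3). The paralogue *SCD5* was at 24.0 ± 0.565 and 23.4 ± 0.486 CPM (-0.031 ± 0.056, SE), with overlapping samples. *FADS2*, the desaturase that opens the synthesis of polyunsaturated chains, had 159, 132 and 114 CPM at 0.77 cP and 94.3, 92.3 and 90.8 CPM at 8 cP (-0.55 ± 0.082, adjusted p = 0.000583, edgeR). *FADS1*, a later desaturase of the same route encoded beside it on the other strand, fell by 0.18, with an adjusted p of 0.0424 in edgeR that rose above the threshold without SC 0.77 cP replicate 1 or 2, SC 8 cP replicate 1 or 2 or shTRPV4 replicate 2 (up to 0.181). *ELOVL6*, which extends palmitate to stearate, went the other way, from 158, 162 and 166 CPM to 180, 187 and 190 CPM (0.20 ± 0.042, adjusted p = 0.00541, edgeR), with no overlap. *ELOVL1*, an elongase of very long chains, was at 121 ± 5.38 and 127 ± 3.48 CPM, and *ELOVL5*, an elongase of polyunsaturated chains, at 229 ± 4.84 and 245 ± 12.4 CPM.

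All 4 enzymes that activate acyl chains or feed them into glycerolipids changed, 2 in each direction, against 19.3% of all genes. *LPIN1*, a phosphatidate phosphatase, had 56.5, 51.5 and 48.7 CPM in SC cells at 0.77 cP and 39.9, 39.0 and 37.7 CPM at 8 cP (-0.43 ± 0.071, SE, adjusted p = 0.00136, edgeR). The acyl-CoA synthetases split. *ACSL1* rose from 38.2 ± 2.49 to 46.6 ± 3.71 CPM (SD, n = 3) and *ACSL4*, known for arachidonate, from 165 ± 1.99 to 186 ± 5.4 CPM, whereas *ACSL3*, known from lipid droplets, fell from 78.3 ± 4.69 to 68.7 ± 0.998 CPM. Of these calls, *ACSL1* was lost without SC 0.77 cP replicate 1 or SC 8 cP replicate 3 (adjusted p up to 0.0608), *ACSL4* without SC 8 cP replicate 3 (0.0678) and *ACSL3* without SC 0.77 cP replicate 1 or 2 or SC 8 cP replicate 2 or 3 (up to 0.106). The number of fatty acid enzymes called fell from 10 to 5 without SC 0.77 cP replicate 1 and to 5 without SC 8 cP replicate 3. All genes called fell from 3518 to 1409 and 1418 in the same fits, so the loss was not particular to these enzymes. All 18 enzymes called lower and 4 called higher kept their sign in every fit that left out a sample.

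**Figure D4:**
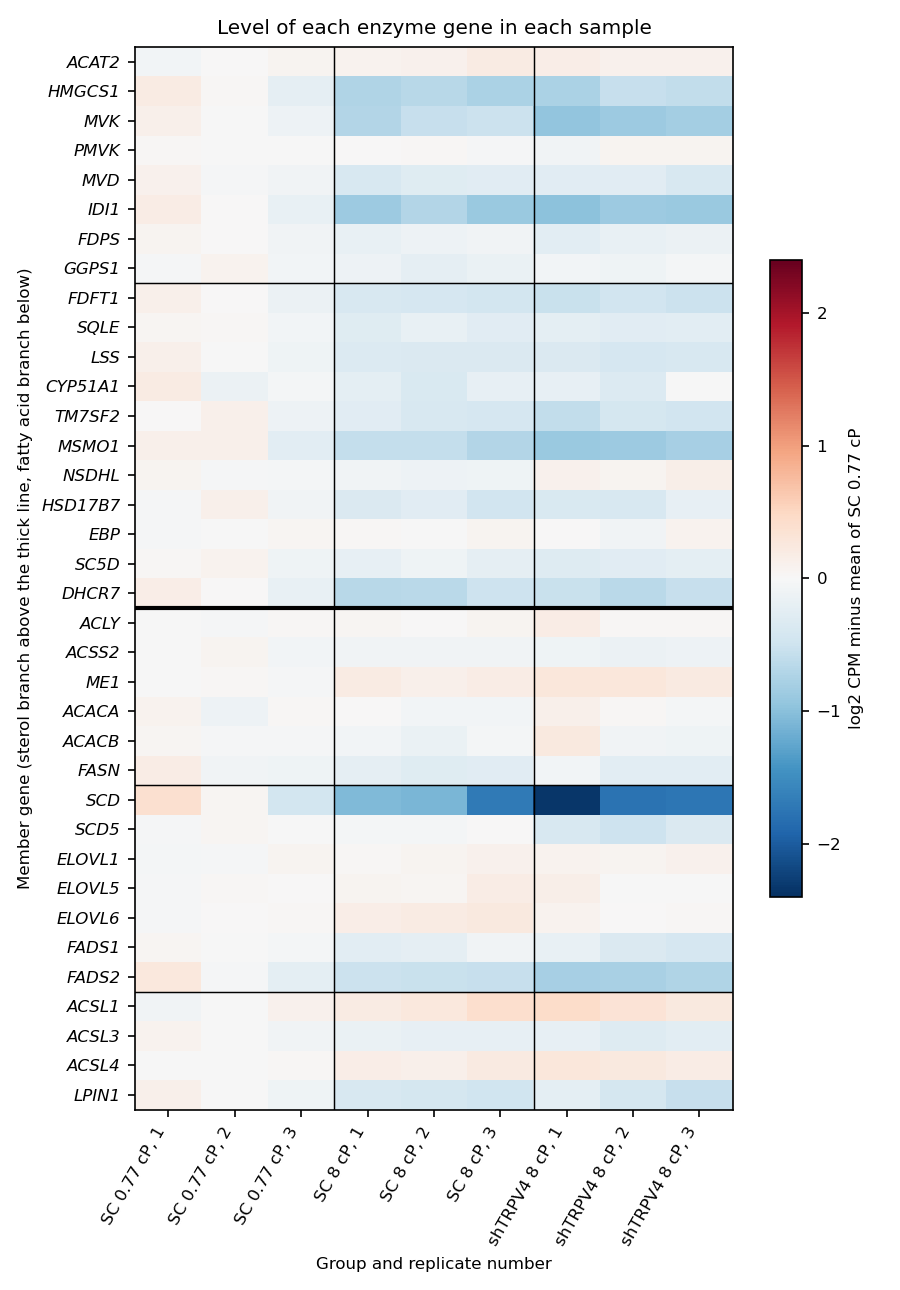
log2 CPM of each enzyme in each sample, minus the mean of SC cells at 0.77 cP (blue, lower; red, higher). The thick line separates the sterol branch (above) from the fatty acid branch (below), thin lines the groups of samples and the steps. Blue spans most sterol rows in all 6 samples at 8 cP, and the darkest cells are those of *SCD*.

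Among samples of a group the sterol enzymes tended to vary together, and the fatty acid enzymes less so. In SC cells at 0.77 cP, 11 of 19 sterol enzymes (57.9%) and 7 of 17 fatty acid enzymes (41.2%) were highest in replicate 1 and lowest in replicate 3, against 17.9% of all genes tested. This order was picked after the levels of these enzymes were seen, so the shares only describe it and do not test it. Over the 9 samples, each enzyme's departures from its group means were compared between enzymes. Their mean pairwise correlation was 0.30 among sterol enzymes, 0.18 among fatty acid enzymes and 0.0046 between the branches, against 0.00052 over all gene pairs. These correlations are a description over samples that share libraries and depth. *SCD* had the widest spread, with SDs of 92.2, 30.3 and 18.2 CPM around means of 327, 133 and 84.2 CPM.

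Between shTRPV4 and SC cells at 8 cP, 1 of the 36 enzymes was higher and 4 were lower. Their share of 13.9% lay near that of all genes, of which 20.0% were called, 9.02% higher and 11.0% lower. In the sterol branch 1 of 19 was higher and 1 lower, with a median log2 fold change of -0.0092. In the fatty acid branch 0 of 17 were higher and 3 lower in edgeR, with a median of 0.022 (-0.050 without shTRPV4 replicate 1), and 0 were higher at an unadjusted p below 0.05 or in DESeq2. The median over all genes was 0.00064. Of 18264 genes, 5920 had an unadjusted p below 0.05 and 3878 were called by DESeq2. The samples of SC cells at 8 cP also entered the comparison of viscosities, so the values of both are given side by side and their relation is not a separate result.

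*NSDHL* and *MVK* were the sterol enzymes that changed. *NSDHL* had 35.9, 35.0 and 35.3 CPM in SC cells at 8 cP and 40.8, 40.1 and 42.0 CPM in shTRPV4 cells (0.21 ± 0.048, SE, adjusted p = 0.0061, edgeR). The groups did not overlap, and the level in SC cells at 0.77 cP, 40.2, 37.4 and 37.0 CPM, reached into the range of shTRPV4 cells. *MVK* fell further, from 16.1, 17.8 and 18.4 CPM to 13.7, 14.3 and 15.0 CPM (-0.28 ± 0.075, adjusted p = 0.0148, edgeR). It was thus lower in every shTRPV4 sample than in any SC sample at either viscosity. Its call was lost without SC 8 cP replicate 2 or 3 (adjusted p up to 0.0553). *MSMO1* had 37.7, 37.7 and 34.8 CPM in SC cells and 30.3, 30.6 and 32.7 CPM in shTRPV4 cells, with no overlap (-0.24 ± 0.081, adjusted p = 0.0527, edgeR). It passed with DESeq2, with only the 6 samples compared and with no filter on low counts, the last giving the lowest adjusted p (0.00141). *TM7SF2* had 13.7, 12.8 and 12.6 CPM and then 11.0, 12.3 and 12.1 CPM (-0.14 ± 0.076, adjusted p = 0.212, edgeR). *IDI1* was at 51.9 ± 3.58 CPM in SC cells and 48.4 ± 2.02 CPM in shTRPV4 cells (SD, n = 3), *HMGCS1* at 22.6 ± 0.766 and 24.0 ± 1.71 CPM, and *DHCR7* at 56.0 ± 3.39 and 57.0 ± 2.22 CPM. The remaining 12 sterol enzymes had log2 fold changes between -0.098 and 0.089 and did not pass.

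All 3 calls in the fatty acid branch were among the 7 desaturases and elongases (42.9%). Of all genes, 20.0% were called and 11.0% were lower. *SCD5* had 23.1, 23.3 and 24.0 CPM in SC cells at 8 cP and 18.2, 17.0 and 18.8 CPM in shTRPV4 cells (-0.38 ± 0.056, SE, adjusted p = 0.000237, edgeR), and kept its call in each fit that left out a sample. *SCD* had 153, 149 and 98.5 CPM and then 63.2, 93.1 and 96.2 CPM (-0.66 ± 0.19, adjusted p = 0.0239, edgeR). The lowest SC sample (98.5 CPM) lay close to the highest shTRPV4 sample (96.2 CPM). The call of *SCD* was lost without SC 8 cP replicate 1 or 2 or shTRPV4 replicate 1 (adjusted p up to 0.108) and with DESeq2 (0.083). *ELOVL6* went back from 180, 187 and 190 CPM to 171, 164 and 166 CPM (-0.15 ± 0.042, adjusted p = 0.0174, edgeR), above the mean of 162 ± 3.7 CPM (SD, n = 3) that SC cells had at 0.77 cP. Without SC 8 cP replicate 2 or 3 or shTRPV4 replicate 2 this call was lost (adjusted p up to 0.0772). *FADS2* had 94.3, 92.3 and 90.8 CPM in SC cells and 76.7, 78.6 and 80.8 CPM in shTRPV4 cells, with no overlap and an adjusted p of 0.0584 in edgeR (-0.23 ± 0.082). It passed with DESeq2, with only the 6 samples compared and with no filter on low counts, the last giving the lowest adjusted p (0.000253). The desaturases and elongases as a group summed to 933 ± 5.44 CPM in SC cells and 829 ± 7.38 CPM in shTRPV4 cells.

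**Figure D5:**
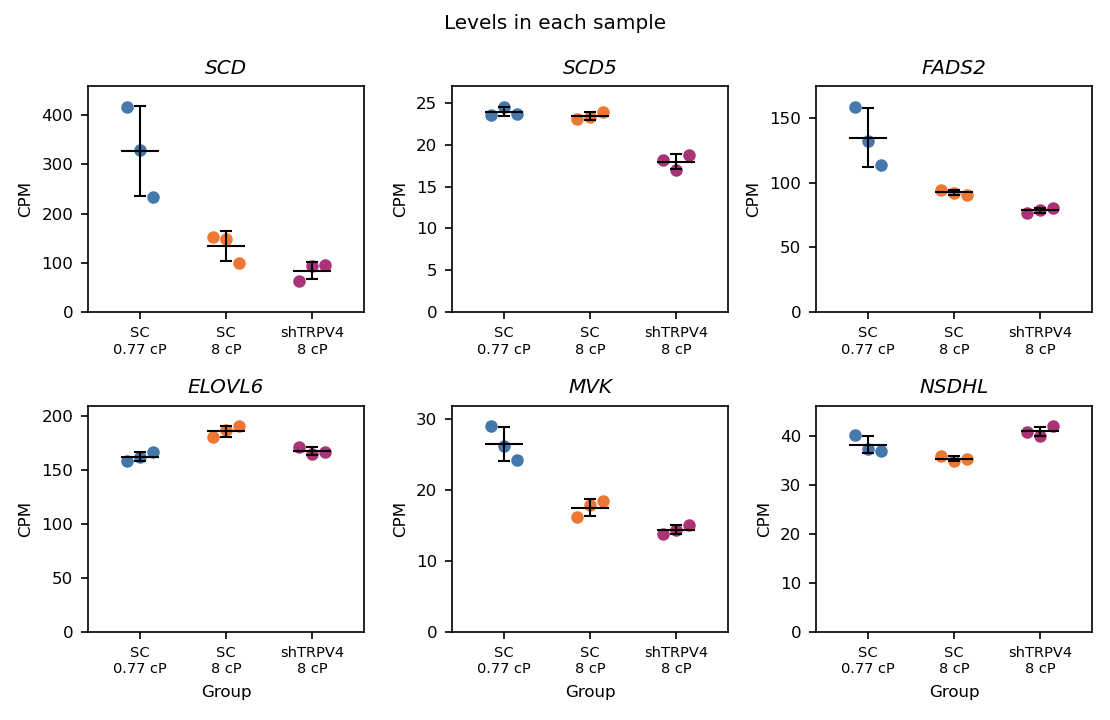
CPM in each sample (points, with the mean and SD of 3 samples in black) of the 5 enzymes called between shTRPV4 and SC cells at 8 cP and of *FADS2*. *SCD*, *FADS2* and *MVK* step down across the 3 groups, *SCD5* is lower in shTRPV4 cells than in both SC groups, *ELOVL6* is highest in SC cells at 8 cP and *NSDHL* is lowest there.

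None of the 6 enzymes from acetyl-CoA to palmitate and none of the 4 acyl-CoA and phosphatidate enzymes passed between shTRPV4 and SC cells at 8 cP. The count was 0 in edgeR, at an unadjusted p below 0.05 and in DESeq2. Among all genes, 20.0% were called in edgeR, while 5920 of 18264 had an unadjusted p below 0.05 and DESeq2 called 3878. *FASN* was at 308, 268 and 271 CPM in shTRPV4 cells and *ACLY* at 313, 280 and 281 CPM. Replicate 1 of the shTRPV4 cells stood apart in this group of steps, with a median of 0.15 on the log2 scale relative to SC cells at 0.77 cP, against -0.033 and -0.068 in the other two. *ACACB*, at 11.5, 9.12 and 9.08 CPM, had the same high sample. *LPIN1* was at 38.8 ± 1.1 CPM in SC cells and 39.5 ± 4.33 CPM in shTRPV4 cells (SD, n = 3).

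Against SC cells at 0.77 cP, shTRPV4 cells at 8 cP had 13 of 19 sterol enzymes lower and 0 higher (edgeR and DESeq2, with 1 higher at an unadjusted p below 0.05), and 8 of 17 fatty acid enzymes lower and 3 higher (*ME1*, *ACSL1* and *ACSL4*). Among all genes 42.4% were called by edgeR, 20.4% higher and 22.0% lower. Of 18264 genes, 8987 had an unadjusted p below 0.05 and 7756 were called by DESeq2. This comparison differs in both viscosity and hairpin and shares samples with the others. *SCD* was lower by 74.3% (log2 fold change -1.96 ± 0.20, SE, adjusted p = 1.99e-06, edgeR), *IDI1* by a log2 fold change of -0.93, *MVK* of -0.88 and *MSMO1* of -0.87. The median over the sterol enzymes was -0.31 and over the fatty acid enzymes 0.029. The latter turned to -0.093 without shTRPV4 replicate 1 and to -0.014 without SC 0.77 cP replicate 2. *FDPS* passed here (-0.20 ± 0.051, adjusted p = 0.0052, edgeR), *ELOVL6* did not (0.044 ± 0.042), and the call of *ACSS2* (-0.13, adjusted p = 0.0341, edgeR) was lost in 7 of 9 fits that left out a sample, up to 0.191. *FASN* was called here (-0.19, adjusted p = 0.0328, edgeR) and lost it without SC 0.77 cP replicate 1 or shTRPV4 replicate 2 or 3 (up to 0.23).

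The genes that control these enzymes, and other genes of the same pathways, were described from lists outside the 36. Of 12 SREBP regulators and targets, 8 were lower and 1 higher (*SCAP*) in SC cells at 8 cP than at 0.77 cP, and 6 were lower and 0 higher in shTRPV4 than in SC cells at 8 cP (edgeR and DESeq2, with 8 lower and 0 higher at an unadjusted p below 0.05). Of all genes, edgeR called 9.69% lower and 9.57% higher with viscosity, and 11.0% lower and 9.02% higher with the hairpin. With the hairpin, 5920 of 18264 genes had an unadjusted p below 0.05 and DESeq2 called 3878. *SREBF2* had a log2 fold change of -0.65 ± 0.072 (SE) with viscosity and -0.24 ± 0.072 with the hairpin. *SREBF1* had -0.50 ± 0.11 and -0.35 ± 0.11. *INSIG1*, a target of SREBPs that restrains them, had -1.71 ± 0.13 and -0.47 ± 0.13. *SREBF2*, *SREBF1* and *INSIG1* passed in both comparisons, which share the SC samples at 8 cP.

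Of 5 genes of the sterol sensor LXR and its targets, 2 were lower in SC cells at 8 cP (*MYLIP*, -0.54 ± 0.069, SE, and *NR1H3*, -0.44 ± 0.079), and *MYLIP* was also lower with the hairpin (-0.31 ± 0.07). Beside these 2 and 1 of 5, 9.69% of all genes were lower with viscosity and 11.0% with the hairpin. *NR1H2* had -0.10 and -0.11, and *ABCG1* -0.028 and -0.75, and neither passed. Of 15 tested acyl chain enzymes outside the 36, 2 rose and 2 fell with viscosity, with *LPIN3* at -0.40, *ACSL5* at 0.22 and *ACSS3* at -0.23. With the hairpin 4 of these 15 fell in edgeR and 5 in DESeq2, and 0 rose in either or at an unadjusted p below 0.05, with *ACSS3* at -0.65, *SLC25A1*, the citrate carrier, at -0.22 and *LPIN2* at -0.16. The share called, 26.7% in each comparison, lay near the 19.3% and 20.0% of all genes. Of 14 fatty acid oxidation genes, 2 rose and 1 fell with viscosity, with *CPT1A*, the carnitine transferase that admits acyl chains to mitochondria, at 0.45 ± 0.087, *HADHA* at 0.13 and *ACADS* at -0.33. With the hairpin 2 of the 14 fell and 0 rose in edgeR and DESeq2, with 2 higher at an unadjusted p below 0.05, *HADH* at -0.21 and *ECI1* at -0.26, while *CPT2* had 0.20 and did not pass. The shares called by edgeR, 21.4% and 14.3%, also lay near those of all genes. With the hairpin, 5920 of 18264 genes had an unadjusted p below 0.05 and DESeq2 called 3878.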

How the data were processed

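Total RNA of MDA-MB-231 cells was sequenced as stranded poly(A) libraries. Per the labels and the study's methods, the authors aligned reads to GRCh38 with HISAT2 2.2.1, counted reads per Ensembl gene with HTSeq 0.13.5 and deposited raw counts for each sample. The strand option of the counting is not given in the sources used here. Of 60664 identifiers, 60463 were matched to a symbol. Groups and replicate numbers come from the sample titles. The labels do not say whether replicates were separate cultures, and the study's general statement on independent replicates does not name the sequencing, so p-values may measure only the spread between these samples, which may be technical.

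Counts were scaled by TMM, filtered with filterByExpr (18264 genes) and tested with edgeR 4.0.16 in R 4.3.3 (quasi-likelihood, 1 coefficient per group, all 9 samples, Benjamini-Hochberg adjustment, threshold 0.05). The common biological coefficient of variation was 0.0633. The fit was tested on simulated data. The log2 CPM values used a prior count of 2. Exon lengths, positions and shared exon bases come from GENCODE 44. Promoter windows come from RefSeq on GRCh38.p14. Alternatives were DESeq2 1.42.0, upper quartile scaling, 2 other filters on low counts, 6 samples only, the replicate number as a block, an added minimum of 0.5 for the size of the log2 fold change, and leaving out each sample. The members and lists were chosen with earlier results of these data known. All 36 enzymes were named. Values in every sample were given for those called in both main comparisons and the 4 of each branch with the smallest adjusted p in either. From each other list the 3 genes with the smallest adjusted p were named, with *SREBF1*, *SREBF2* and *INSIG1*. Some genes that this rule selects are not reported here.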

Additional observations from a re-analysis of the deposited data

How the results depend on the processing

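The number of enzymes called and their median log2 fold change were recomputed under each alternative. With an added minimum of 0.5 for the size of the log2 fold change, 5 sterol and 2 fatty acid enzymes were called between SC cells at 8 cP and 0.77 cP (12 and 10 without it), 0 and 1 between shTRPV4 and SC cells at 8 cP (2 and 3), and 6 and 2 where viscosity and hairpin both differed (13 and 11), since it keeps only large changes. All genes called went from 3518, 3649 and 7752 to 698, 959 and 2426. Leaving out each sample gave 10 to 14 sterol enzymes called with viscosity, 1 to 3 with the hairpin and 12 to 14 with both, and 5 to 10, 1 to 4 and 9 to 12 fatty acid enzymes. The hairpin counts were lowest without SC 8 cP replicate 2 (1 sterol and 1 fatty acid enzyme). The medians lay between -0.35 and -0.25, -0.026 and -0.00027, and -0.34 and -0.24 for sterol enzymes, and between -0.057 and -0.016, -0.050 and 0.031, and -0.093 and 0.049 for fatty acid enzymes. The direction of the last turned without shTRPV4 replicate 1 (-0.093) and without SC 0.77 cP replicate 2 (-0.014), and that with the hairpin without shTRPV4 replicate 1 (-0.050). All genes called with viscosity fell to 1409 without SC 0.77 cP replicate 1 and to 1418 without SC 8 cP replicate 3. Over the fits that left out a sample, all genes called ranged from 1409 to 4349 with viscosity. The ranges were 2179 to 3836 with the hairpin and 6318 to 7705 with both. The causes were not tested.

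With DESeq2, upper quartile scaling, both other filters, or 6 samples only, the counts stayed within 1.5 times the main ones. Scaling shifted the median of all genes by at most 0.016. Per enzyme and comparison, these alternatives and the block together ended 6 calls, added 7 and reversed 0 calls. Deviations of same-numbered samples had correlations of -0.0546 to 0.0904 over all pairs of groups. Those of differently numbered samples ranged from -0.106 to 0.115. Between the SC groups, however, every same-numbered correlation (0.0455, 0.032 and 0.0904) lay above the highest differently numbered one (0.0167). Whether the replicate numbers pair the samples is therefore not known. With the replicate number as a block, 12, 2 and 13 sterol and 9, 3 and 11 fatty acid enzymes were called, *FADS1* being lost with viscosity. All genes called in that fit numbered 3475, 3607 and 7731 of 18264.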
